A study of Ericerus pela with 2 samples.

Results

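Insects smell and taste with sensilla, small cuticular organs that house ciliated sensory neurons. Small soluble carriers, the odorant-binding proteins and chemosensory proteins, take hydrophobic molecules through the fluid around the dendrites. Odorant receptors, which work in a complex with a shared co-receptor, and gustatory receptors sit in the dendritic membrane, and sensory neuron membrane protein 1 (SNMP1), of the CD36 family, helps pheromone receptors respond in Drosophila. The transcripts of these proteins are described here in male Ericerus pela, a wax-secreting scale insect whose males become winged adults while females stay wingless.

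The series held 1 library of wild-type male pupae and 1 of wild-type male prepupae, with no replicate. The labels name the whole body as the tissue and an age of 90 without a unit, while the submitters' design note names the retina. Each library was given as read counts on unigenes, which are assembled transcript fragments. Whether animals were pooled is not given in the sources used here.

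Members were the unigenes whose best protein database match contained any of 9 chemosensory terms, such as odorant receptor, gustatory receptor or odorant-binding. The rule found 15 unigenes of 120710 in all, of which 27626 had a database match. The term ionotropic receptor matched 0 unigenes and pheromone-binding matched 0, so the label's ionotropic receptors had no member under their own name. By the name of the match, the 15 comprised 3 odorant receptors, 3 gustatory receptors, 1 SNMP1, 7 odorant-binding proteins and 1 chemosensory protein. They were short, from 208 to 596 bases with a median of 300, against a median of 254 over all unigenes. Several may be pieces of 1 transcript, so they are not a count of genes. Sequences and genome positions were not analysed here.

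Reads totalled 1840877 in pupae and 2182108 in prepupae. Members held 501 of them in pupae and 156 in prepupae, and after scaling to reads per 1000000 of the library total (RPM) the members' sum was 3.81-fold higher in pupae, with an exact 95% counting interval from 3.17 to 4.59. All intervals in the text cover counting error only, and none covers the spread between animals. With 1 library per stage there was no test, no p-value and no replicate check, and each comparison is between these libraries. In whole bodies, a change in the number of sensory cells and a change in RNA per cell cannot be told apart. The rule of size called a unigene higher in pupae, or lower, where log2((RPKM in pupae + 1)/(RPKM in prepupae + 1)) was at least 1 in size and the mean RPKM was at least 1; RPKM is reads scaled to unigene length and library total.

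**Figure D1:**
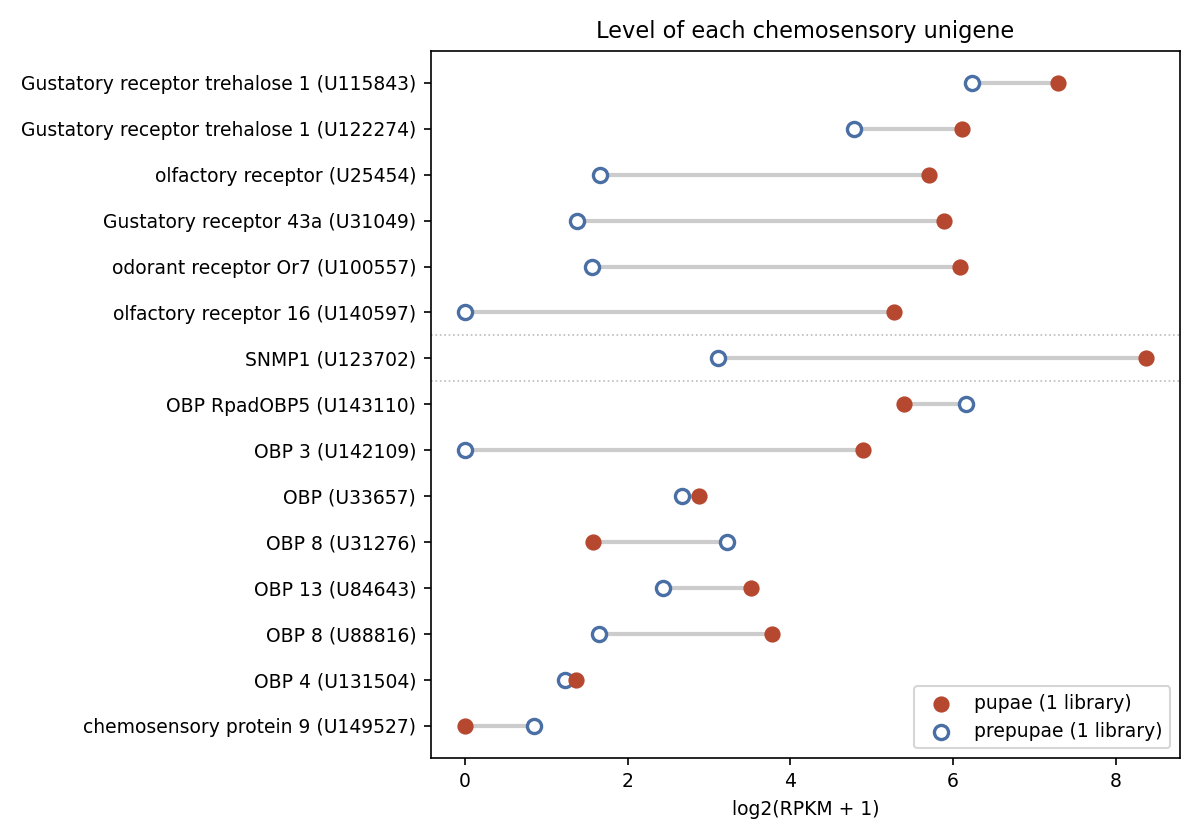
Level of the 15 unigenes as log2(RPKM + 1), with pupae as filled and prepupae as open points, 1 library each, receptors on top, then SNMP1, then the carriers. The 6 receptors and SNMP1 lie farther right in pupae, whereas the carriers (OBP, odorant-binding protein) are mixed in direction.

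Of the 15 members, 14 passed the filter on low values, and 10 of these were called higher in pupae, 1 lower and 3 neither. Over all 113976 filtered unigenes, 23.0% were called higher and 39.4% lower, and over those with a database match 14.7% were called higher and 41.4% lower. The median log2 ratio of the members that passed was 1.73, beside −0.49 over all unigenes. A level of at least 10 reads was reached by 9 members in pupae and by 3 in prepupae. Among the 9 members with at least 20 reads over both libraries, 8 were called higher and 0 lower, and the background at that depth was 17.9% higher and 37.5% lower.

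All 6 unigenes named as receptors were called higher in pupae, by margins that fell into separate ranges. Those matching odorant receptors and Gr43a were near 0 reads in prepupae, whereas the trehalose-named gustatory receptors were well covered in prepupae too. The trehalose-named pair counts as gustatory receptors by match name alone, and it held 61 of the 65 prepupal receptor reads. Together the 6 had 132.5 RPM in pupae and 29.8 RPM in prepupae, 4.45-fold higher in pupae (3.37 to 5.94). Without the trehalose-named pair, the other 4 had 70.1 RPM in pupae and 1.83 RPM in prepupae, 38.2-fold higher (14.6 to 142).

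Odorant receptors had 3 unigenes with 98 reads in pupae and 3 in prepupae, 38.7-fold higher in pupae (12.9 to 191). The unigene with the strongest match of all members, Unigene25454_FOB, resembled an olfactory receptor of the wasp Microplitis mediator over an assembled length of 423 bases. Its expect value, the number of equally good matches due to chance in the database search, was 1.36e-48. It had 40 reads (51.4 RPKM) in pupae and 2 reads (2.17 RPKM) in prepupae, 23.7-fold higher (6.15 to 202).

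Unigene100557_FOB, of 235 bases, matched odorant receptor Or7 of the mosquito Culex quinquefasciatus. Or7 is a name used in mosquitoes for the co-receptor Orco, which partners the odour-specific receptors. The unigene had 29 reads (67.0 RPKM) in pupae and 1 read (1.95 RPKM) in prepupae, and its level exceeded 92.5% of all unigenes in pupae and 19.9% in prepupae. Its Gene Ontology terms included sensory perception of chemical stimulus and G-protein coupled receptor activity, but also aminoacyl-tRNA ligase activity, which is not a property of odorant receptors.

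Unigene140597_FOB, of 418 bases, matched olfactory receptor 16 of the beetle Tribolium castaneum. It had 29 reads (37.7 RPKM) in pupae and 0 reads in prepupae, where a count of 0 allows up to 3 reads, or 3.29 RPKM for its length. Set against that limit it was at least 11.5-fold higher in pupae, taking the pupal count as exact, and its exact counting interval starts at 8.74-fold. The 3 odorant receptor unigenes had similar levels per length in pupae, from 37.7 to 67.0 RPKM, and were at 2.17 RPKM or less in prepupae.

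Gustatory receptors, by match name, had 3 unigenes. Unigene31049_FOB, of 288 bases, matched a pea aphid protein similar to Gr43a, a fructose receptor in Drosophila. It had 31 reads (58.5 RPKM) in pupae and 1 read (1.59 RPKM) in prepupae, 36.7-fold higher (6.12 to 1498). The wide interval reflects the single prepupal read.

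Gustatory receptor trehalose 1 was the best match of the other 2, in the ants Harpegnathos saltator and Camponotus floridanus. Their Gene Ontology terms included no term for taste or the sensing of chemicals. Those of Unigene115843_FOB included transmembrane receptor activity, central nervous system development and adult behavior. Those of Unigene122274_FOB were general, such as signal transducer activity. Whether either encodes a taste receptor was not tested. Unigene115843_FOB, of 272 bases, had 78 reads (155.8 RPKM) in pupae and 44 reads (74.1 RPKM) in prepupae, 2.10-fold higher (1.43 to 3.11). Its log2 ratio of 1.06 only just passed the rule, and it was the most abundant member in prepupae. Unigene122274_FOB, of 294 bases, had 37 reads (68.4 RPKM) in pupae and 17 reads (26.5 RPKM) in prepupae, 2.58-fold higher (1.42 to 4.89). Summed, the trehalose-named unigenes were 2.23-fold higher (1.62 to 3.10), an interval that does not reach the 12.9 at the low end of the odorant receptors' interval. The difference itself was not tested.

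SNMP1 was the most abundant member in pupae. Unigene123702_FOB, of 300 bases, matched a sensory neuron membrane protein-1 of the wasp Nasonia vitripennis. It had 182 reads (329.6 RPKM) in pupae and 5 reads (7.64 RPKM) in prepupae, 43.1-fold higher (18.2 to 134). Its level exceeded 99.1% of all unigenes in pupae and 51.8% in prepupae. This single unigene held 36.3% of all member reads in pupae (exact 95% binomial interval 32.1 to 40.7) and 3.21% in prepupae (1.05 to 7.32).

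**Figure D2:**
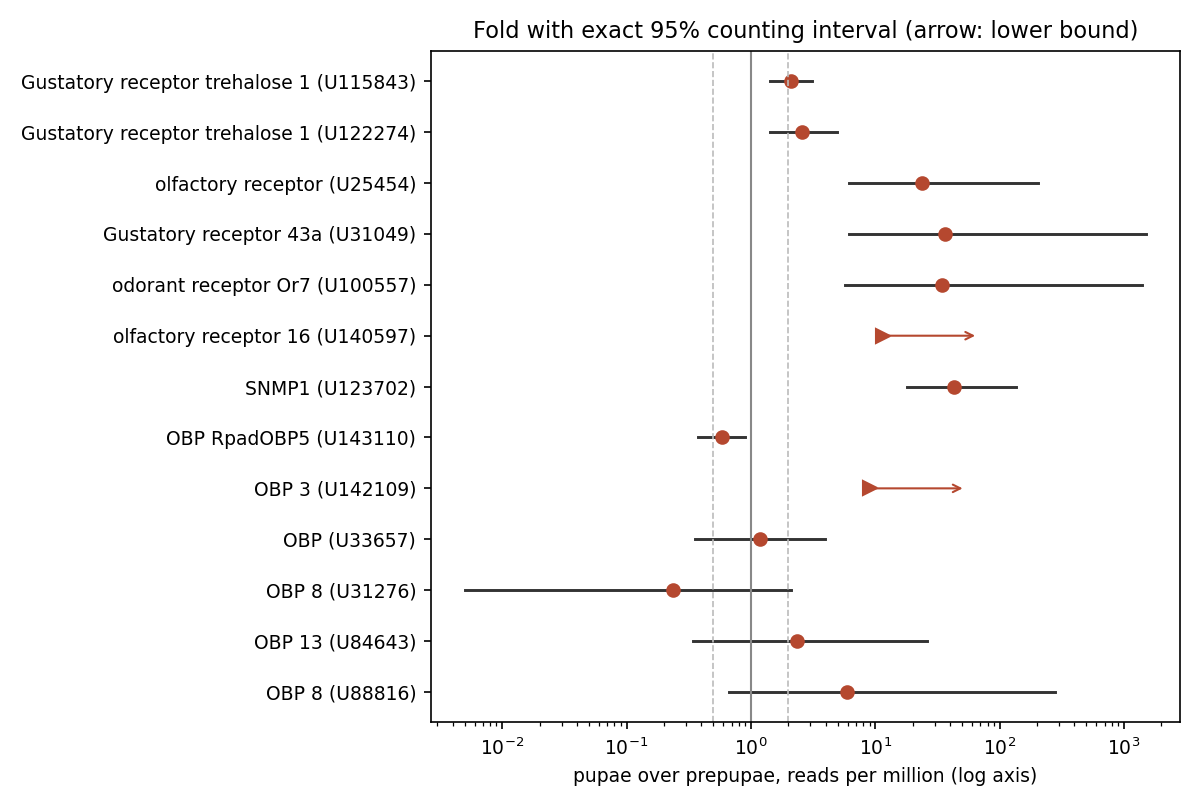
Fold of RPM, pupae over prepupae, on a log axis with exact 95% counting intervals; arrows start at the lower bound for unigenes with 0 prepupal reads, and dashed lines mark 2-fold. Intervals of the receptors and SNMP1 lie right of 1, and the only interval that lies left of 1 is that of OBP RpadOBP5.

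The carriers were mixed in direction. Their 8 unigenes together had 40.7 RPM in pupae and 39.4 RPM in prepupae, a ratio of 1.03 (0.748 to 1.43). Of the 7 that passed the filter, all odorant-binding proteins, 3 were called higher, 1 lower and 3 neither, and their median log2 ratio was 0.21. Carriers made up 15.0% of member reads in pupae (12.0 to 18.4) and 55.1% in prepupae (47.0 to 63.1). That prepupal interval overlaps the one of the receptors. The unigene matching RpadOBP5 alone held 69 of the 86 carrier reads in prepupae. The receptors took 48.7% in pupae (44.2 to 53.2) and 41.7% in prepupae (33.8 to 49.8). The trehalose-named pair alone took 23.0% in pupae and 39.1% in prepupae.

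Only 2 carriers had at least 20 reads, and they differed in opposite directions. Unigene143110_FOB, of 447 bases, matched RpadOBP5 of the aphid Rhopalosiphum padi and had 34 reads (41.3 RPKM) in pupae and 69 reads (70.7 RPKM) in prepupae. That is 0.584-fold (0.376 to 0.893), short of the 2-fold rule. Its log2 ratio of −0.76 was 0.27 below the median of all unigenes.

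Unigene142109_FOB, of 435 bases, matched odorant-binding protein 3 of Microplitis mediator. It had 23 reads (28.7 RPKM) in pupae and 0 reads in prepupae, where up to 3.16 RPKM is allowed, and was at least 9.09-fold higher in pupae on the same reckoning, with an exact counting interval that starts at 6.81-fold. Its match was the weakest of the members, with an expect value of 7.44e-07. Without RpadOBP5, the remaining 7 carriers were 2.86-fold higher in sum, so this 1 unigene sets the balance of the carriers.

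The 6 carriers under 20 reads summed to 18 reads in pupae and 17 in prepupae. Unigene31276_FOB, like odorant binding protein 8 of the aphid Sitobion avenae, had 1 read in pupae and 5 in prepupae and was the only member called lower; its ratio of 0.237 had an interval from 0.00501 to 2.12. Unigene88816_FOB, like odorant-binding protein 8 of Megoura viciae, had 5 reads in pupae and 1 in prepupae, a ratio of 5.93 (0.663 to 280.3). These calls rest on so few reads that their intervals include 1.

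Unigene84643_FOB, like odorant-binding protein 13 of the pea aphid, had 4 reads in pupae and 2 in prepupae, a ratio of 2.37 (0.340 to 26.2). Unigene33657_FOB, like an odorant binding protein of Sitobion avenae and at 596 bases the longest member, had 7 reads in each library. Unigene131504_FOB, like odorant-binding protein 4 of Pterocomma salicis, had 1 read in each. Unigene84643_FOB passed the 2-fold call on 6 reads, but its interval includes 1, and at this depth no difference was detectable for the other two.

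The chemosensory protein had too few reads to compare. Unigene149527_FOB, of 575 bases, matched chemosensory protein 9 of Tribolium castaneum and had 0 reads in pupae, which allows up to 2.83 RPKM, and 1 read (0.797 RPKM) in prepupae. It was the member that failed the filter.

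**Figure D3:**
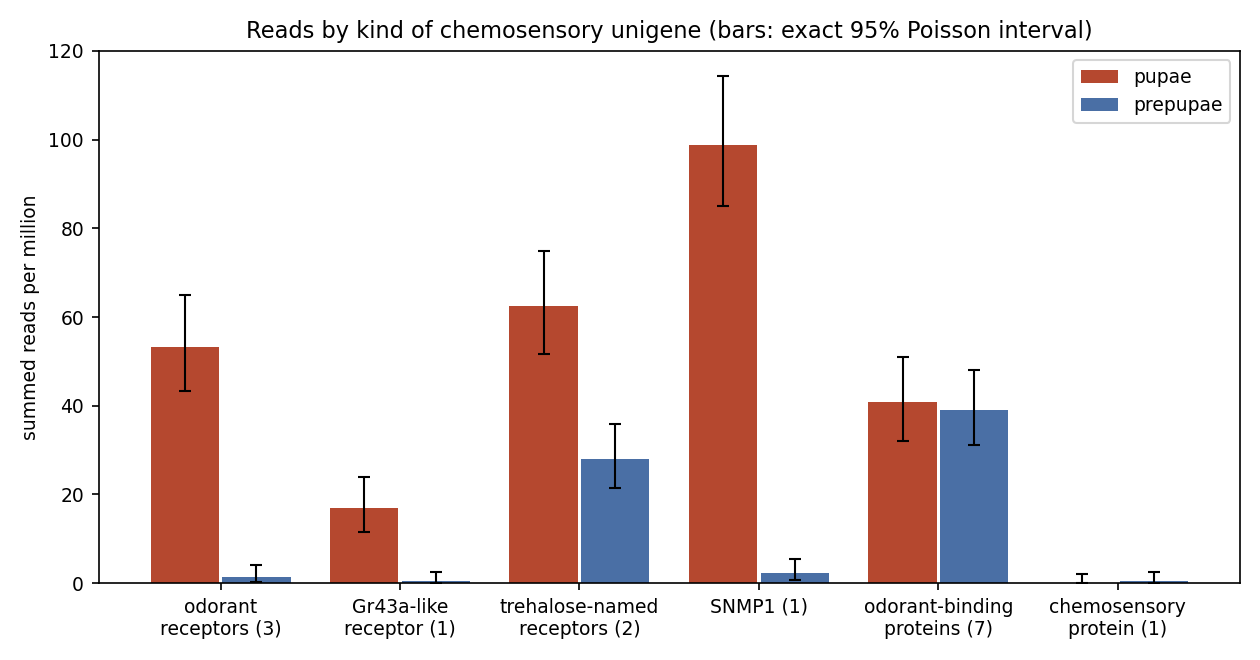
Summed RPM for each kind of chemosensory unigene, pupae left of prepupae, 1 library each, with exact 95% Poisson intervals as error bars and the number of unigenes in brackets. Odorant receptors have 53.2 RPM in pupae and 1.37 in prepupae, while odorant-binding proteins have 40.7 in pupae and 39.0 in prepupae.

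The members differed in how large the change was. On the scale with 1 RPKM added, 6 of the 14 exceeded a 16-fold increase in pupae, against 1.76% of all filtered unigenes, or 3.03% of those with at least 20 reads. They were SNMP1, the 3 odorant receptors, the Gr43a-like receptor and odorant-binding protein 3. Since 2 of the 6 had no prepupal read, only 4 reach that size without leaning on the added value. Of these 4, only SNMP1 has a counting interval that starts above 16-fold, at 18.2. The intervals of the Or7-like receptor, the Gr43a-like receptor and Unigene25454_FOB start at 5.70, 6.12 and 6.15. The 6 held 334 reads in pupae and 9 in prepupae, and 66.7% of member reads in pupae (62.3 to 70.8) against 5.77% in prepupae (2.67 to 10.7).

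Coverage, the percent of a unigene's length under at least 1 read, comes from the same reads as the counts and follows their number. In pupae the reads of the 6 receptors spread over 83.0% to 97.5% of each unigene, and those of SNMP1 over 99.3%, so that the pupal counts did not come from a single pile of reads. In prepupae the trehalose-named receptors were covered over 91.9% and 81.6%, and SNMP1 over 52.0%. The Or7-like, Gr43a-like and Microplitis-like receptors were covered over 20.9%, 17.0% and 23.2% in prepupae. Coverage was greater in pupae for 11 of the 15 members, equal for 1 and lower for 3, of which RpadOBP5 had 74.7% in pupae and 84.3% in prepupae.

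**Figure D4:**
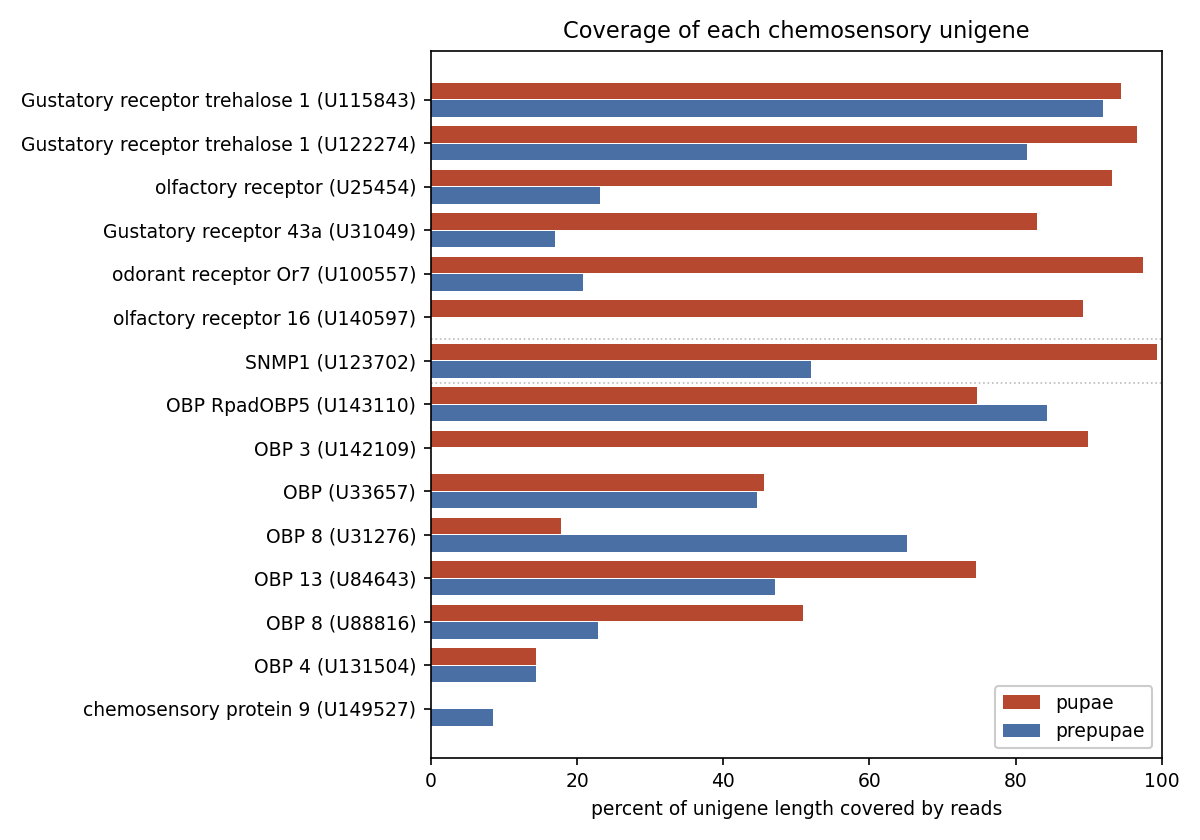
Percent of each unigene's length covered by reads, pupae above prepupae within each row. Receptors and SNMP1 are covered over at least 83.0% in pupae, and most carriers are covered in part in both libraries.

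The rule used the name of the best match but not its species, and in this the members differed. Of the 7 odorant-binding proteins, 6 had their best match in an aphid, the nearest relatives of scale insects among the matched species. Of the 6 receptors, 1 did, and the others matched 2 ants, 1 wasp, 1 beetle and 1 mosquito. Gene Ontology terms were attached to 4 of the 6 receptors, but to 0 of the 8 carriers and not to SNMP1.

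Other genes of the pathway were counted with 7 keyword lists. Between 7.14% and 33.3% of a list's filtered unigenes were called higher in pupae. Over filtered unigenes with a database match, 14.7% were called higher and 41.4% lower. Ionotropic glutamate receptors, the channel family from which ionotropic chemoreceptors derive, had 4 of 20 filtered unigenes higher and 4 lower, with a median log2 ratio of 0.23. An NMDA receptor 1 unigene had 66 reads in pupae and 32 in prepupae, 2.44-fold higher (1.58 to 3.85). The pattern also caught 7 unigenes of other proteins, namely metabotropic receptors, glutamate-binding chains and NMDA receptor-regulated protein 1, of which a unigene had 29 reads in pupae and 229 in prepupae. These 7 held 3 of the 4 lower calls. Without them, a choice made after the values were seen, 4 of 13 filtered unigenes were higher and 1, with 0 reads in pupae and 2 in prepupae, was lower, and after centring on the median of all unigenes 8 were higher and 1 lower.

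Of 26 other CD36 family members, 3 (11.5%) were called higher in pupae and 12 (46.2%) lower, near the 14.7% and 41.4% over all filtered unigenes with a database match. Their median log2 ratio was −0.81, and after centring 5 were higher and 6 lower. A unigene like croquemort, a scavenger receptor of blood cells in Drosophila, had 413 reads (613 RPKM) in pupae and 14 reads (17.5 RPKM) in prepupae, 35.0-fold higher (20.6 to 64.5). It held 36.1% of the pupal reads of the list. Another croquemort unigene had 186 reads in pupae and 542 in prepupae, 0.407-fold (0.343 to 0.481).

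The list of other small carriers, among them takeout proteins, which bind hydrophobic ligands, had 2 of 15 unigenes (13.3%) higher in pupae and 7 (46.7%) lower. Over matched unigenes these shares were 14.7% and 41.4%. The pattern also caught Niemann-Pick C1, lipocalin-1 interacting membrane receptors, antennal esterases and an antennal cytochrome P450. Both higher calls were takeout proteins. The lower calls were Niemann-Pick C1 and esterase unigenes, apart from an antennal carrier protein, TOL-2, with 1 read in pupae and 24 in prepupae. The list's shares therefore do not describe small carriers alone. Their median log2 ratio was −0.66, and after centring 3 were higher and 7 lower. A takeout precursor was 12.8-fold higher in pupae (7.11 to 25.5), with 130 reads in pupae and 12 in prepupae. A Niemann-Pick C1 unigene, of a sterol carrier of the lysosome, had 9 reads in pupae and 64 in prepupae.

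Arrestins and receptor kinases, which shut off activated receptors, had 4 of 17 unigenes (23.5%) higher and 2 (11.8%) lower, against 14.7% and 41.4% over matched unigenes. Their median log2 ratio was 0.45, and after centring 8 were higher and 2 lower. Both lower calls were arrestin domain-containing proteins, a family apart from the arrestins that bind these receptors, and without its 3 unigenes, left out after the values were seen, 4 of 14 were higher and 0 lower. A unigene like an Arr2-like arrestin of Anopheles gambiae had 332 reads in pupae and 5 in prepupae, 78.7-fold higher (33.4 to 244). An Arrestin-like protein had 215 reads in pupae and 5 in prepupae, 51.0-fold higher (21.5 to 158.6). Arrestins also act in photoreceptors, and whole-body libraries do not separate the organs. TRP and pickpocket channels, which sense heat, touch and some irritants, had 3 of 9 (33.3%) higher and 3 (33.3%) lower, most of them on few reads. The 3 higher calls had 3 to 5 reads in pupae and 0 or 1 in prepupae. Among the lower calls, a pyrexia unigene had 1 read in pupae and 71 in prepupae. The others had 0 reads in pupae and 1 or 2 in prepupae.

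Regulators of sensory organ formation had 3 of 32 unigenes (9.38%) higher and 12 (37.5%) lower, near the 14.7% and 41.4% over matched unigenes. Their median log2 ratio was −0.35, and after centring 11 were higher and 8 lower. One caught match, a clathrin light chain, does not belong to the list. A dachshund unigene, of a factor that patterns antennae and legs in Drosophila, had 35 reads in pupae and 20 in prepupae. It was 2.07-fold higher in RPM (1.16 to 3.79), with a log2 ratio of 0.98, just under the rule. A prospero unigene, of a factor of neural precursors and sense organs, had 17 reads in pupae and 58 in prepupae, 0.347-fold (0.190 to 0.605). Genes of transport within cilia, which build the outer dendrites of chemosensory neurons, had 2 of 28 (7.14%) higher and 15 (53.6%) lower, against 14.7% and 41.4%. Their median log2 ratio was −1.34, with 131 reads in pupae and 384 in prepupae. After centring 2 were higher and 11 lower.

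**Figure D5:**
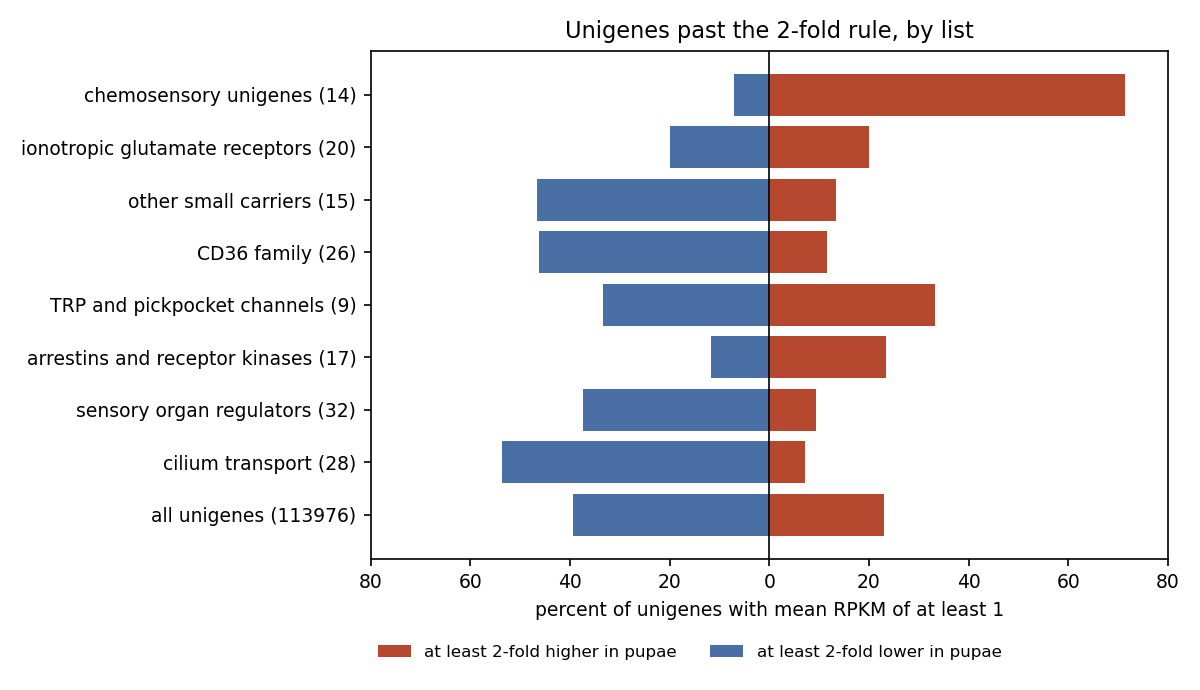
Percent of filtered unigenes called at least 2-fold higher (right) or lower (left) in pupae, for the chemosensory unigenes, 7 lists of other pathway genes and all unigenes, with the number of filtered unigenes in brackets. All unigenes stand at 23.0% higher and 39.4% lower, and cilium transport leans furthest to lower among the bars.

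Markers of other cells moved between the libraries as well. Of 11 neuron markers, 9 had a unigene and none of these was at 0 in either library; choline acetyltransferase and syntaxin 1 matched 0 unigenes. Summed per marker, 6 of the 9 passed 2-fold towards pupae, while neurexin was lower, at 61.9 RPM in pupae and 210.3 RPM in prepupae. Of the 6, elav had 3 reads in pupae and 1 in prepupae, too few for a fold under the floor of 3 counts. All 9 together had 726 RPM in pupae and 437 RPM in prepupae, 1.66-fold higher (1.53 to 1.81). Of the 8 neurexin unigenes, 7 matched Neurexin-4, which in Drosophila is a protein of septate junctions. Without neurexin, left out after the values were seen, the other 8 markers had 664 RPM in pupae and 226 RPM in prepupae, 2.93-fold higher (2.64 to 3.26). The 8 synaptotagmin unigenes were 3.02-fold higher in sum, but 1 of them, Synaptotagmin-1, had 1 read in pupae and 28 in prepupae. The synaptobrevin match was Synaptobrevin-like protein YKT6. Counted by unigene, the neuron pattern had 16 of 35 (45.7%) higher and 9 (25.7%) lower. Those 35 include 5 matches to other proteins, such as beta-glucosidase. Over filtered unigenes with a database match, 14.7% were called higher and 41.4% lower. Muscle markers had 23 of 63 unigenes (36.5%) higher and 2 (3.17%) lower. Most of these 63 matched titin, so many may be pieces of 1 transcript. Cuticle markers had 12 of 27 (44.4%) higher and 9 (33.3%) lower. The lower cuticle calls were laccase 1 or Laccase-4 unigenes, except a cuticular protein with 4 reads in pupae and 15 in prepupae. Every laccase 2 unigene was called higher. Fat body markers had 0 of 18 higher and 11 (61.1%) lower. Of those 11, 7 were vitellogenin receptors, known from the ovary, with 2 reads in pupae and 31 in prepupae over all 8 receptor unigenes, and the other 4 were vitellogenins. Summed levels were 6594 RPM in pupae and 3125 RPM in prepupae for muscle, 1221 RPM in pupae and 180.1 RPM in prepupae for cuticle, and 375 RPM in pupae and 657 RPM in prepupae for fat body, so transcripts of tissues other than the eye were present in both libraries. The part of these in the chemosensory values was not tested.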

How the data were processed

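Per the file headers, the authors deposited for each library the count of uniquely assigned reads per unigene, the unigene length, the percent of that length covered, RPKM, Gene Ontology terms and the best protein match. Libraries were made by standard Illumina procedures, per the labels' protocols; the sources used here do not give the assembler, aligner or filters. Since only uniquely assigned reads were counted, near-identical copies may have lost reads.

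The tables were joined on unigene (lengths and matches differed for 0 shared unigenes); an unlisted unigene got 0 reads. Log2 ratios used the deposited RPKM plus 1, where the mean RPKM reached 1. Folds are ratios of RPM (reads scaled to library totals) with exact conditional binomial 95% intervals; against 0 reads a floor of 3 counts per library was used (1.63 RPM in pupae, 1.37 in prepupae), and no fold is given where neither library exceeded 3 reads. All members are named; of each pathway list, up to 2 highest and 2 lowest unigenes with at least 50 reads could be named. NMDA receptor-regulated protein 1 fell under this rule. The members and lists were chosen with earlier results of these data known. Python 3.11.15, scipy 1.17.1 and edgeR 4.0.16 (TMM factors only) were used. Alternatives were the pseudocount, the filter, the scaling, the fold rule, a minimum of reads and leaving out members.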

Additional observations from a re-analysis of the deposited data

How the results depend on the processing

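The count of 10 members higher in pupae stayed between 7 and 10 under every alternative run, with 7 under a 4-fold rule, and the median log2 ratio of members stayed between 1.26 and 4.52. The 1 member lower in pupae became 0 with a pseudocount of 5 RPKM, with at least 20 reads, under the 4-fold rule and among members whose interval does not reach 1 (an alternative chosen after seeing the data); each follows from how the setting is built, since Unigene31276_FOB has few reads, a log2 ratio of −1.65 and an interval that reaches 1. With the 2 unigenes without prepupal reads set at their bounds, the members' median stayed at 1.73 and that of the receptors was 3.78 in place of 4.28.

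The median of all unigenes lay at −0.49, and TMM scaled the pupal library by 0.761. Centring on that median gave 6.25-fold for the receptors and 1.45-fold for the carriers, each higher by construction. Without its member with the most reads the sum was 9.37-fold for receptors and 2.86-fold for carriers, and without the trehalose-named receptors, an alternative chosen after seeing the data, 38.2-fold for receptors; fewer unigenes enter these sums. SNMP1 was 1 unigene, so no such sum exists. The folds of 11 single unigenes stayed within their counting intervals in 22 of 22 rescaled values. This says little, since each rescaling multiplies every fold by the same factor and most of these intervals are wide. No paired analysis was possible because each stage had 1 library. Depth limits the 6 members under 20 reads.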

Other observations

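Pheromone-degrading enzymes, which clear signal molecules around the receptors in moths and beetles, were looked up after the members' values had been seen and had 6 unigenes with 36 reads in pupae and 93 in prepupae, 0.459-fold (0.303 to 0.681). Of these, 5 (83.3%) were called lower and 1 (16.7%) higher, against 41.4% and 14.7% over filtered unigenes with a database match. Among the 5, those with 2 reads in pupae and 7 in prepupae and with 0 in pupae and 5 in prepupae have intervals that reach 1, and after centring 4 were lower. Unigene151747_FOB, like an enzyme of the moth Antheraea polyphemus, had 0 reads in pupae and 32 in prepupae, and Unigene139104_FOB, with the same match, had 1 read in pupae and 21 in prepupae. The higher one, Unigene124883_FOB, like a Tribolium castaneum enzyme, had 31 reads in pupae and 14 in prepupae, 2.62-fold higher (1.36 to 5.34).

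Unigenes outside the members that carried a Gene Ontology term for taste, smell learning or the sensing of chemicals numbered 34, of which 14 (41.2%) were called higher in pupae and 4 (11.8%) lower, against 14.7% and 41.4% over unigenes with a database match. Their median log2 ratio was 0.85. They include signalling proteins that also act elsewhere, such as the phosphatidylinositol transfer protein m-rdgb2, with 108 reads in pupae and 50 in prepupae, and G(alpha)q, with 20 reads in pupae and 59 in prepupae. Abnormal chemosensory jump 6, a POU factor that sets odorant receptor choice in Drosophila, had 2 reads in each library.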
